A study of Mus musculus with 9 samples.

Results

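Transcripts of the matrix metalloproteinase system were followed in mouse lung through 10 genes. They were the tissue inhibitors Timp1, Timp2 and Timp3, the matrix metalloproteinases Mmp2, Mmp3, Mmp12, Mmp14 and Mmp19, and the proteases Adamts1 and Adamts4. The genes were taken by symbol from 18984 listed genes, and all 10 were found. All 10 also passed the filter on low values (at least 1 FPKM in at least 3 of 9 libraries), which left 13761 genes for testing.

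Libraries came from whole lungs of C57BL/6 mice, a common inbred strain, 24 hours after material was placed in the trachea. The 3 groups received hyphal fragments of Aspergillus fumigatus (the filamentous form of this mould), its conidia (the inhaled spores) or normal saline as control, with 3 libraries each. The labels give neither the age nor the sex of the mice, nor the dose. Nothing in them ties a library to its own mouse, so the p-values speak only to the spread among these samples, and that spread may be technical. All values are per-length levels in FPKM (read fragments scaled to transcript length and library size), so genes can be compared with each other within a library. In whole tissue, fewer cells of a type and less RNA per cell cannot be told apart.

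Matrix metalloproteinases are zinc-dependent enzymes that are made as inactive precursors and, once activated, cut collagens, elastin, laminins and many signalling proteins. ADAMTS proteases are secreted relatives that cut proteoglycans such as versican and aggrecan. TIMPs are small secreted proteins that occupy the active site of these enzymes. Timp3 differs from the other inhibitors in that it is held in the matrix and also blocks ADAMTS and ADAM proteases. In injured lung the balance between the enzymes and their inhibitors is known to govern the repair of basement membrane, the passage of leukocytes and scarring.

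Summed FPKM per library ranged from 492540 to 515755 after hyphae, from 505792 to 522168 after conidia and from 518913 to 561250 in control. The files hold no counts, and the depth was not computed here. The median log2 difference of all tested genes was −0.37 between hyphae and control, −0.29 between hyphae and conidia and −0.07 between conidia and control. Each comparison was therefore also made after every library had been rescaled by a median-of-ratios factor. The resulting values are called rescaled, and all others are as deposited. Lung identity was checked with 8 epithelial markers, among them the surfactant genes and the club cell gene Scgb1a1. None was at 0 in any library, and their summed level was 55740 to 65250 FPKM after hyphae, 61170 to 77380 FPKM after conidia and 88320 to 131500 FPKM in control. Scgb1a1 alone held 27860 to 33464 FPKM after hyphae, 40998 to 60182 FPKM after conidia and 59121 to 110355 FPKM in control. The sums therefore do not describe the 8 markers as a set. Their median log2 difference from the control mean was −0.167 to 0.255 in the hyphae libraries and −0.502 to −0.0247 in the conidia libraries.

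After conidia the inhibitor Timp1 and the stromelysin Mmp3 rose. When each library was left out in turn, this call was kept in 4 of 9 fits for Timp1 and in 3 of 9 for Mmp3. Mmp3 also lost its call after rescaling. After hyphae the inhibitor Timp3 and the protease Adamts1 rose. Adamts4 was above control in every library of both fungal groups, with a call for hyphae against control and no detected difference between hyphae and conidia. It passed the filter on low values only through fungal libraries, so that call is not independent of the filter. Compared with conidia directly, Timp3 and Adamts1 were higher and Timp1, Mmp3 and Mmp19 were lower after hyphae. In the whole table the shares of genes called as higher were 14.9% for hyphae against control, 0.596% for conidia against control and 12.7% for hyphae against conidia. The shares called as lower were 50.0%, 0.0945% and 42.5% in the same order. A call means an adjusted p under 0.05 over all 13761 genes in a limma model of all 9 libraries.

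**Figure D1:**
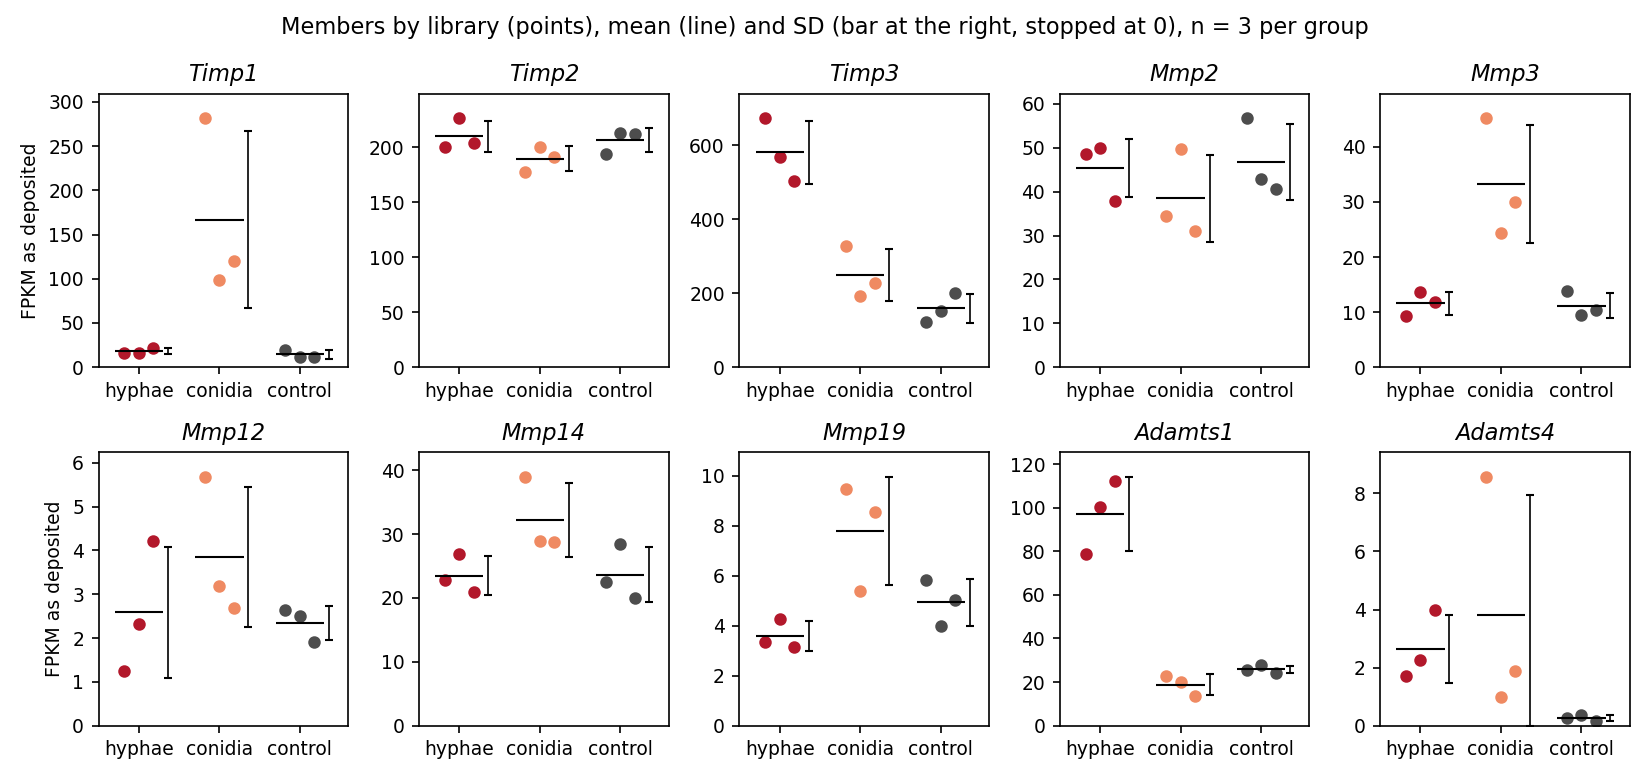
FPKM as deposited (vertical axes, each from 0) of the 10 genes in each library, by group on the horizontal axis. Points are libraries, lines are group means and bars are SD (n = 3 per group); Timp1 reaches 98.7 to 281 FPKM in the 3 conidia libraries and stays between 11.6 and 21.8 FPKM in the other 6.

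Among the inhibitors, Timp1 is the inducible one and is known as a secreted, soluble inhibitor of most MMPs. It stood at 16.2, 16.1 and 21.8 FPKM in hyphae replicates 1, 2 and 3, at 281, 98.7 and 120.4 FPKM in conidia replicates 1, 2 and 3 and at 19.9, 11.9 and 11.6 FPKM in control replicates 1, 2 and 3. The conidia libraries lay above all others, and hyphae and control overlapped. Conidia raised its mean 11.5-fold over control, a log2 difference of 3.33 (SE 0.37, adjusted p = 0.0244; 3.41 rescaled, adjusted p = 0.043), which is rank 26 of 13761 from the highest. This call was lost without control replicate 1, 2 or 3, conidia replicate 3 or hyphae replicate 2, with adjusted p between 0.0525 and 0.14 and log2 differences between 3.20 and 3.57. Timp1 differed by −3.00 on the log2 scale between hyphae and conidia (SE 0.37, adjusted p = 0.000293; −2.68 rescaled), and this call held without each library in turn (−3.30 to −2.55). Between hyphae and control the difference was 0.33 with a 95% interval from −0.51 to 1.16 (adjusted p = 0.456; 0.73 rescaled, adjusted p = 0.145).

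Timp3, the matrix-bound inhibitor, showed another order. Its level was 673, 567 and 503 FPKM in hyphae replicates 1, 2 and 3, 328, 192 and 228 FPKM in conidia replicates 1, 2 and 3 and 123, 153 and 202 FPKM in control replicates 1, 2 and 3. All hyphae libraries lay above all others, while conidia and control overlapped. Hyphae raised the mean 3.65-fold over control (log2 difference 1.88, SE 0.23, adjusted p = 0.000201; 2.31 rescaled) and 2.33-fold over conidia (1.24, SE 0.23, adjusted p = 0.00211; 1.58 rescaled). Both calls held without each library in turn. Between conidia and control the difference of 0.64 did not pass (95% interval 0.11 to 1.17, adjusted p = 0.172).

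Timp2, known for its part in activating pro-Mmp2 together with Mmp14, was the steadiest of the inhibitors. It ranged from 200.3 to 226 FPKM after hyphae, from 178 to 200.1 FPKM after conidia and from 194 to 213 FPKM in control. As deposited no comparison passed, with a log2 difference of 0.02 between hyphae and control (95% interval −0.19 to 0.24), 0.15 between hyphae and conidia and −0.12 between conidia and control. Rescaled, it was called as higher after hyphae than in control (0.45, adjusted p = 0.00532) and than after conidia (0.48, adjusted p = 0.00524).

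Because a share within a library does not depend on scaling between libraries, the make-up of the summed TIMP transcripts was also computed. Timp1 made up 1.82, 1.99 and 2.99% of the summed FPKM of Timp1, Timp2 and Timp3 in the hyphae libraries, 35.8, 20.1 and 22.3% in the conidia libraries and 5.91, 3.15 and 2.72% in the control libraries. Timp3 made up 71.6 ± 3.55% after hyphae, 41.0 ± 1.64% after conidia and 41.4 ± 5.48% in control (SD, n = 3 each). Timp2 held the largest share in each control library and Timp3 in each hyphae library. The summed TIMP level was 809 ± 80.4 FPKM after hyphae, 606 ± 159 FPKM after conidia and 380 ± 44.5 FPKM in control (SD, n = 3 each). Divided by the summed level of the 5 MMPs it gave a ratio of 9.38 ± 1.04 after hyphae, 5.21 ± 0.751 after conidia and 4.37 ± 1.07 in control (SD, n = 3 each). For this ratio hyphae did not overlap with either other group, and conidia overlapped with control. In a two-sided exact permutation test, the Timp1 share of conidia against control, the Timp3 share of hyphae against control and the ratio of hyphae against control each gave p = 0.1, the smallest that 3 against 3 libraries allow (0.15 after Benjamini-Hochberg adjustment over 30 such tests).

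**Figure D2:**
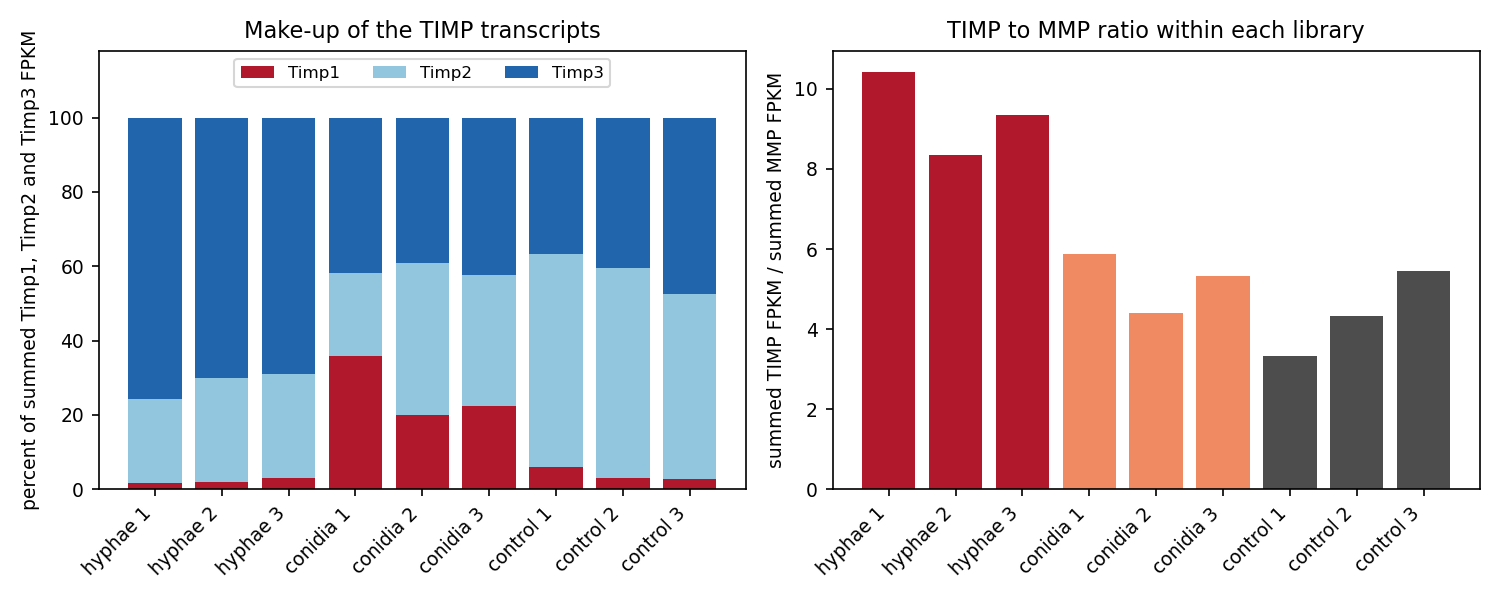
Left, the percent of the summed FPKM of Timp1, Timp2 and Timp3 that each of them holds in every library; right, that sum divided by the summed FPKM of Mmp2, Mmp3, Mmp12, Mmp14 and Mmp19. Timp1 holds 20.1 to 35.8% in the conidia libraries and at most 5.91% elsewhere, and the ratio is 8.35 to 10.4 in the hyphae libraries and at most 5.88 elsewhere.

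Of the 5 metalloproteinases, Mmp3 (stromelysin-1, which cuts laminin, proteoglycans and other pro-MMPs) was the one called against control. It was at 9.36, 13.6 and 11.8 FPKM in hyphae replicates 1, 2 and 3, at 45.2, 24.4 and 30.1 FPKM in conidia replicates 1, 2 and 3 and at 13.8, 9.43 and 10.4 FPKM in control replicates 1, 2 and 3. As for Timp1, the conidia libraries lay above all others and hyphae overlapped with control. Conidia raised its mean 2.97-fold over control (log2 difference 1.46, SE 0.23, adjusted p = 0.0416). The adjusted p was 0.0584 after rescaling and 0.0605 without a filter on low values, and the call was lost when any one of 6 libraries was left out (adjusted p 0.0901 to 0.205), namely control replicate 1, 2 or 3, conidia replicate 1 or 3 or hyphae replicate 2. Hyphae and conidia differed by −1.41 (SE 0.23, adjusted p = 0.0011; −1.10 rescaled, adjusted p = 0.00925), and it stayed called without each library in turn.

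Mmp19, a secreted metalloproteinase of basement membrane and other matrix, was at 3.33, 4.28 and 3.16 FPKM in the hyphae libraries, 9.49, 5.37 and 8.54 FPKM in the conidia libraries and 5.83, 3.97 and 5.01 FPKM in the control libraries. It was lower after hyphae than after conidia by a log2 difference of −0.91 (SE 0.20, adjusted p = 0.00498; −0.64 rescaled, adjusted p = 0.0416), with no overlap between these groups as deposited. Neither fungal group differed from control past the threshold (0.55 for conidia, adjusted p = 0.179; −0.37 for hyphae, adjusted p = 0.141). Without conidia replicate 2 the difference between conidia and control was 0.77 and passed (adjusted p = 0.0274).

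Mmp14, the membrane-bound metalloproteinase that activates pro-Mmp2, was at 22.8, 26.8 and 20.9 FPKM after hyphae, 39.0, 28.9 and 28.7 FPKM after conidia and 22.5, 28.5 and 20.02 FPKM in control. The conidia libraries lay above all others, with 28.7 against a highest control value of 28.5 FPKM, but no comparison passed (0.43 for conidia against control, adjusted p = 0.189; −0.43 for hyphae against conidia, adjusted p = 0.0503). Mmp2, the gelatinase of fibroblasts and other stromal cells, had 48.5, 50 and 37.8 FPKM after hyphae, 34.5, 49.8 and 31.1 FPKM after conidia and 56.7, 43.0 and 40.7 FPKM in control, and its groups overlapped in every comparison. Its log2 difference was −0.04 between hyphae and control (95% interval −0.48 to 0.41) and −0.29 between conidia and control (−0.74 to 0.16). Rescaled, Mmp2 was called as higher after hyphae than after conidia (0.58, adjusted p = 0.0233). Mmp12, the macrophage elastase, was the lowest of the 5, at 1.25, 2.31 and 4.21 FPKM after hyphae, 5.68, 3.19 and 2.68 FPKM after conidia and 2.63, 2.51 and 1.90 FPKM in control. Its 3 conidia libraries lay above control by little, and no comparison passed (0.49 for conidia against control, 95% interval −0.22 to 1.21, adjusted p = 0.381).

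The 2 ADAMTS proteases of the set differed in level and in pattern. Adamts1, which cuts versican and aggrecan and is known as an early response gene of endothelium, was at 78.9, 100.5 and 112 FPKM in hyphae replicates 1, 2 and 3, at 22.7, 19.98 and 13.5 FPKM in conidia replicates 1, 2 and 3 and at 25.6, 27.7 and 24.3 FPKM in control replicates 1, 2 and 3. The hyphae libraries lay above, and the conidia libraries below, all control libraries, but after rescaling the conidia libraries overlapped with control. Hyphae raised the mean 3.76-fold over control (log2 difference 1.86, SE 0.19, adjusted p = 8.94e-05; 2.28 rescaled) and 5.19-fold over conidia (2.33, SE 0.19, adjusted p = 5.27e-05; 2.66 rescaled), rank 37 of 13761 from the highest. Both calls held without each library in turn, with ranges of 1.75 to 2.001 and 2.12 to 2.48. The difference of −0.47 between conidia and control did not pass (adjusted p = 0.205).

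Adamts4, also called aggrecanase-1, was scarce in control lung. It stood at 1.71, 2.26 and 3.97 FPKM in hyphae replicates 1, 2 and 3, at 8.57, 0.98 and 1.87 FPKM in conidia replicates 1, 2 and 3 and at 0.28, 0.38 and 0.16 FPKM in control replicates 1, 2 and 3. Every fungal library lay above every control library, and it passed the filter only through those libraries, so the test against control is not independent of the filter. The mean was 9.68-fold higher after hyphae than in control, with a log2 difference on the scale of FPKM + 1 of 1.47 (SE 0.51, adjusted p = 0.0294; 1.69 rescaled, adjusted p = 0.0234; adjusted p = 0.0408 without a filter on low values). The call was lost without control replicate 1, 2 or 3 or hyphae replicate 2 or 3 (adjusted p 0.0578 to 0.0923), and with 5 added before the logarithm (0.53, adjusted p = 0.11). After conidia its mean was 13.9-fold higher than in control, but the libraries ranged so widely that the difference of 1.58 did not pass (SE 0.51, adjusted p = 0.141). Without conidia replicate 2 that difference was 2.05 and passed (adjusted p = 0.0336), and without conidia replicate 1 it was 0.91. Hyphae and conidia differed by −0.10 (95% interval −1.25 to 1.04).

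**Figure D3:**
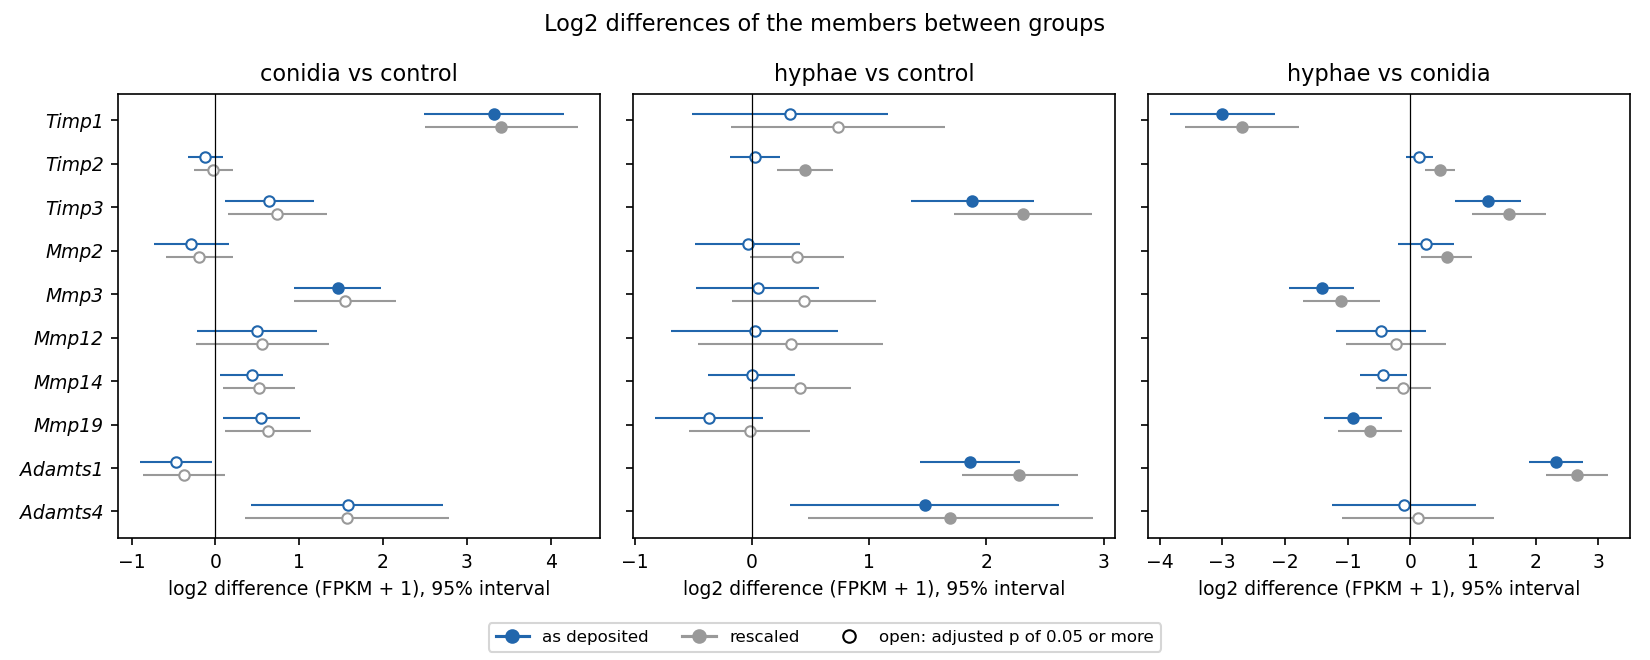
Log2 differences of FPKM + 1 (horizontal axes) of the 10 genes in the 3 comparisons, with 95% intervals, as deposited (blue) and rescaled (grey). Filled points have an adjusted p under 0.05; Timp1 stands at 3.33 for conidia against control and at −3.00 for hyphae against conidia, and Adamts1 at 1.86 for hyphae against control and 2.33 for hyphae against conidia.

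Counted over the set, 3 of the 10 genes (Timp3, Adamts1 and Adamts4, with the limit given for Adamts4) were called as higher and none as lower after hyphae than in control (4 as higher and none as lower after rescaling, where 30.0% of all genes were called as higher and 29.3% as lower). For conidia against control 2 of 10 were called as higher and none as lower (1, Timp1, and none rescaled, where 0.298% and 0.0436% of all genes were). At an unadjusted p under 0.05, 3 were higher and 0 lower after hyphae, beside 16.0% and 52.4% of all genes. At the same threshold 6 were higher and 1 (Adamts1) was lower after conidia, beside 8.78% and 12.4% of all genes. Between hyphae and conidia 2 were called as higher and 3 as lower (4 and 3 rescaled, with 25.4% of all genes called in each direction). As deposited, all hyphae libraries lay above all control libraries in 3 genes (Timp3, Adamts1 and Adamts4) and below in none, while over all genes 17.3% lay above and 53.4% below. All conidia libraries lay above control in 5 genes (Timp1, Mmp3, Mmp12, Mmp14 and Adamts4) and below in 1 (Adamts1), against 12.0% and 17.8% of all genes. All hyphae libraries lay above conidia in 3 genes (Timp2, Timp3 and Adamts1) and below in 4 (Timp1, Mmp3, Mmp14 and Mmp19), against 14.8% and 45.1% of all genes. The median log2 difference of the set was 0.04 for hyphae against control, 0.52 for conidia against control and −0.27 for hyphae against conidia. Rescaled, these medians were 0.45, 0.59 and 0.01, so that their size for hyphae depends on the scaling. Separation of the groups moved with the scaling as well. Rescaled, Adamts1 overlapped between conidia and control, Mmp14 and Mmp19 overlapped between hyphae and conidia, Timp1, Timp2 and Mmp14 lay above control in all hyphae libraries, and Mmp2 lay above conidia in all hyphae libraries. Rescaling divided the hyphae libraries by 0.811 to 0.8998 and the control libraries by 1.116 to 1.165, which raises every gene after hyphae against control. The shares of all genes separated after rescaling are not given here, so these separations cannot be set against them. The comparisons with control share the same 3 control libraries, and the comparison of the fungal groups shares its libraries with both.

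The conidia libraries differed among themselves. Conidia replicate 1 was the highest of the 3 in 8 of the 10 genes, all but Timp2 and Mmp2. Conidia replicate 2 was the lowest in 5, namely Timp1, Timp3, Mmp3, Mmp19 and Adamts4. The summed level of 18 neutrophil markers was 3295 FPKM in conidia replicate 1, 922 FPKM in conidia replicate 2 and 2347 FPKM in conidia replicate 3.

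Neutrophil markers are given beside Timp1 and Mmp3. The summed markers stood at 716, 2042 and 6262 FPKM in hyphae replicates 1, 2 and 3, against 155 to 180 FPKM in the control libraries. Hyphae replicate 3, with the highest marker sum of all 9 libraries, had 21.8 FPKM of Timp1 and 11.8 FPKM of Mmp3. Conidia replicate 2, with a lower sum, had 98.7 and 24.4 FPKM. The sum rests largely on S100a8 and S100a9. They held 1918 and 2073 FPKM in hyphae replicate 3 and 271 and 359 FPKM in conidia replicate 2. Other markers order these libraries differently, as given below for Csf3r. Of 16 tested neutrophil markers 11 were called as higher and 1 as lower after hyphae than in control, and 3 were called as higher after conidia than in control (none rescaled). Over all genes 14.9% were called as higher and 50.0% as lower after hyphae (30.0% and 29.3% rescaled), and 0.596% as higher after conidia. Ly6g, Trem1 and Il1r2 were below 1 FPKM in every control library, so they passed the filter only through fungal libraries. At an unadjusted p under 0.05 as deposited, 13 markers were higher after conidia than in control, beside 8.78% of all genes. Between hyphae and conidia 2 markers were higher and 4 lower (2 and 2 rescaled), beside 12.7% and 42.5% of all genes (25.4% each rescaled). Ly6g and Mpo were at 0 in control replicate 1, and Elane was at 0 in control replicate 2 and conidia replicate 1. Within the conidia libraries Timp1, Mmp3 and the marker sum had the same order, with replicate 1 highest and replicate 2 lowest. Single markers also differed in their order between the groups. The receptor gene Csf3r, picked after its values were seen, stood at 12.0, 25.9 and 44.1 FPKM in the hyphae libraries, 103, 88.6 and 108 FPKM in the conidia libraries and 17.3, 24.5 and 17.5 FPKM in the control libraries. Fpr1, picked in the same way, stood at 0.81, 3.74 and 7.98 FPKM in the hyphae libraries, 39.0, 7.85 and 14.99 FPKM in the conidia libraries and 3.18, 3.60 and 4.51 FPKM in the control libraries. Other markers of the list went the other way. Camp was at 7.39, 35.3 and 206 FPKM in the hyphae libraries and 1.44, 1.83 and 2.40 FPKM in the conidia libraries. For Ngp the values were 40.8, 181 and 639 FPKM after hyphae and 45.1, 4.72 and 42.8 FPKM after conidia. The part of infiltrating cells in the level of the 10 genes was not tested.

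**Figure D4:**
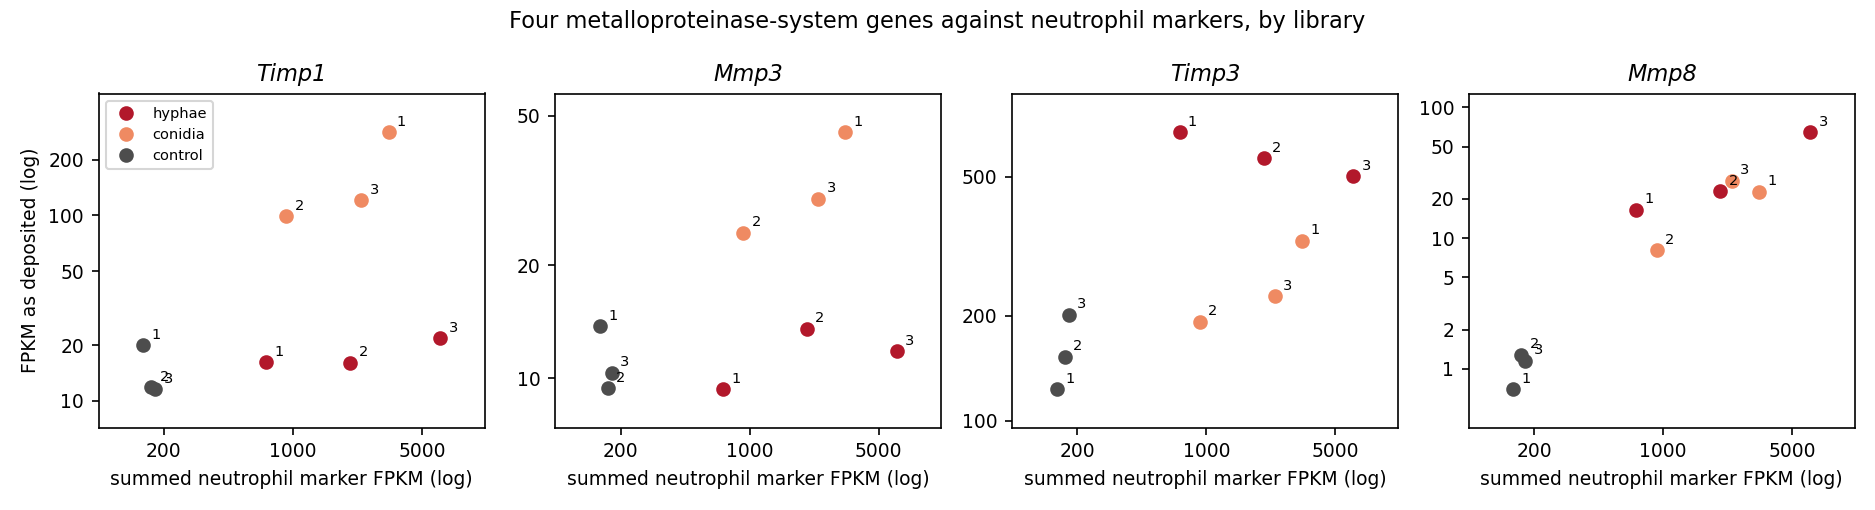
FPKM of Timp1, Mmp3, Timp3 and Mmp8 (log vertical axes) against the summed FPKM of 18 neutrophil markers (log horizontal axes) in each library, numbered by replicate. Mmp8, itself one of the markers, is highest in hyphae replicate 3 (64.5 FPKM), where the sum is highest and Timp1 is at 21.8 FPKM.

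Other cell markers gave the following values beside these results. Of all genes 14.9% were called as higher and 50.0% as lower for hyphae against control (30.0% and 29.3% rescaled). For hyphae against conidia these shares were 12.7% and 42.5% (25.4% each rescaled), and for conidia against control 0.596% and 0.0945%. For monocytes and recruited macrophages the summed level of 14 markers was 189 to 320.2 FPKM after hyphae, 320 to 665 FPKM after conidia and 204 to 256 FPKM in control. In this list 1 gene was called as higher and 6 as lower after hyphae than in control (2 and 3 rescaled), and 2 were called as higher after conidia than in control. Set against conidia, 9 of the 14 were lower and none higher after hyphae (7 and none rescaled). For alveolar macrophages, 12 measured markers summed to 307 to 461 FPKM after hyphae, 419 to 447 FPKM after conidia and 285 to 404 FPKM in control, with 3 called as lower after hyphae (0 lower and 3 higher rescaled). For fibroblasts, 12 markers summed to 1853 to 1921 FPKM after hyphae, 1480 to 2479 FPKM after conidia and 2342 to 2817 FPKM in control, with 1 higher and 3 lower after hyphae (1 and 1 rescaled). For endothelium, 11 markers summed to 1532 to 1646 FPKM after hyphae, 1626 to 1998 FPKM after conidia and 1240 to 1670 FPKM in control, with 3 higher and 3 lower after hyphae (3 and 2 rescaled). The 8 epithelial markers held 3 called as lower after hyphae than in control (4 higher and 3 lower rescaled). Of 10 smooth muscle and pericyte markers 3 were lower after hyphae than in control (3 higher and 1 lower rescaled), and of 6 tested mesothelial markers 1 was lower (none rescaled). No gene of the alveolar macrophage, fibroblast, endothelial, epithelial, smooth muscle or mesothelial list was called by limma between conidia and control in either scaling, and none was at 0 in any library. At an unadjusted p under 0.05, the genes higher and lower after conidia were 3 and 0 of the alveolar macrophage list, 1 and 2 of the fibroblast list, 1 and 1 of the endothelial list, 0 and 2 of the epithelial list, 1 and 3 of the smooth muscle list and 0 and 0 of the mesothelial list, beside 8.78% and 12.4% of all genes. Their part in the results was not tested.

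To show what stands in front of the genes that moved with each form of the fungus, promoter windows were taken from RefSeq (build GRCm38.p6, which is not the mm9 build named for the files). Windows of 300 bases, from 250 bases before to 50 after the transcription start, were at hand for 7 of the 10 genes, with 2 windows for Mmp12. Mmp2, Mmp19 and Adamts4 were not matched. Each window was searched on both strands for TGAGTNA, the form of the AP-1 element (bound by Fos and Jun proteins) that covers TGAGTCA and TGAGTAA. Capitals mark a match. The first lines are the 100 bases before the start of the genes that rose after conidia, with a stretch of 30 bases after the start of Timp1. Mmp12, for which no comparison passed, is added because its second window held a match. The stretch after the start of Timp1 is shown for the same reason. The windows of Timp2 and Mmp14 held no match and are not printed. The printed lines were thus chosen partly by the motif and cannot show how it is shared between the groups of genes. The last lines are the 100 bases before the start of the genes that rose after hyphae.
Timp1, chrX:20870066-20870165, plus strand: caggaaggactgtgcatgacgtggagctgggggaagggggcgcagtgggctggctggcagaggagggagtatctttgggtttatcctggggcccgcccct
Timp1 after the start, chrX:20870186-20870215, plus strand: ggtggaTGAGTAAtgcgtccaggaagcctg
Mmp3, chr9:7445722-7445821, plus strand: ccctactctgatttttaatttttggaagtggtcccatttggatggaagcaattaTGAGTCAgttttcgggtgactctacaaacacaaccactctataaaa
Mmp12, second window, chr9:7347274-7347373, plus strand: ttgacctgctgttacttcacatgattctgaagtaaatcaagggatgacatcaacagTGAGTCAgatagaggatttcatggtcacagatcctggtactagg
Timp3, chr10:86300312-86300411, plus strand: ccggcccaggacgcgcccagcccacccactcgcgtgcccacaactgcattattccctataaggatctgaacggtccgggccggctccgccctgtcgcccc
Adamts1, chr16:85803114-85803213, minus strand: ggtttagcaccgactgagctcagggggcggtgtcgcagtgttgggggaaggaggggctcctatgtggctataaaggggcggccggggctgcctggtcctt

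TGAGTNA was found in Mmp3 from base −46 to −40, in the second Mmp12 window from −123 to −117 and from −44 to −38, and in Timp1 from base 27 to 33 after the start. In Mmp3, and in Mmp12 at −44, the letters were TGAGTCA. The windows of Timp2, Timp3, Mmp14 and Adamts1 held no match. Of all 32851 windows of this length 14.7% held TGAGTNA and 5.2% held TGAGTCA. The TATA sequence TATAAA, found in 13.6% of all windows, stood in Mmp3 from −7 to −2 and in Adamts1 from −32 to −27. In the second Mmp12 window it stood after the start, from base 5 to 10. An NF-kB consensus (8.46% of all windows) matched in the first Mmp12 window alone among these 8 windows, and a CArG box (1.63% of all windows) matched in none of them. A match describes these letters and not a bound site.

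Position was a second feature that the choice of genes did not use. Mmp3 and Mmp12 lie on chromosome 9 in a run of protein-coding genes with Mmp13 and Mmp1b on one side or between them and Mmp10, Mmp8, Mmp27, Mmp20 and Mmp7 on the other. Mmp8, the neutrophil collagenase, had 16.5, 22.8 and 64.5 FPKM in the hyphae libraries, 22.7, 8.10 and 27.4 FPKM in the conidia libraries and 0.7, 1.29 and 1.16 FPKM in the control libraries. Mmp13 stayed at or below 1.25 FPKM and Mmp27 at or below 0.72 FPKM in all 9 libraries. Mmp7, Mmp10, Mmp20 and Mmp1b were each listed at 0 in at least 6 libraries. Mmp1b and Mmp10, the direct neighbours of Mmp3, were near 0 while Mmp3 itself was at 9.36 to 45.2 FPKM.

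Several of the genes overlap others on the opposite strand, and the sources used here do not tell if the counting used strand. Without it, reads of a gene and of its antisense partner cannot be told apart. Timp1 lies within Syn1 and Timp3 within Syn3, synapsin genes known from neurons, which were at 0.15 to 0.69 FPKM and at 0.57 to 2.02 FPKM.

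The rest of the protease family was read from lists of all other mouse members. Of 17 other MMP genes in the files 8 were tested. After hyphae 2 were called as higher than in control, Mmp8 (log2 difference 3.89, SE 0.53, adjusted p = 0.00034) and the gelatinase Mmp9 (1.92, SE 0.50, adjusted p = 0.00866), and 5 as lower, led by Mmp11 (stromelysin-3, −1.90, SE 0.21, adjusted p = 0.000114) and the membrane-bound Mmp15 (−0.88). Rescaled, 2 were higher and 1 lower, and Mmp15 was among those not called (−0.45, adjusted p = 0.0602). Over all genes 14.9% were called as higher and 50.0% as lower (30.0% and 29.3% rescaled). After conidia 1 of the 8 was called as higher than in control, Mmp8 (3.17, SE 0.53, adjusted p = 0.047; adjusted p = 0.0594 rescaled), and none as lower. Between hyphae and conidia none was higher and 4 were lower, with Mmp11 (−1.40), Mmp28 (−0.88), the leukocyte enzyme Mmp25 (−0.81) and Mmp24 (−0.40), of which Mmp11 was called after rescaling. Over all genes 12.7% were called as higher and 42.5% as lower (25.4% each rescaled). Mmp25 was below 1 FPKM in every control library and in hyphae replicates 1 and 2. It passed the filter mainly through the conidia libraries, so its call is not independent of the filter. Mmp8 also needed fungal libraries to pass, as control replicate 1 was at 0.7 FPKM. Mmp8 and Mmp9 are on the neutrophil marker list too, and their levels were highest in hyphae replicate 3 (64.5 and 37.3 FPKM).

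Of 17 other ADAMTS genes 11 were tested. After hyphae 4 were called as higher than in control and 3 as lower (5 and 2 rescaled). Over all genes these shares were 14.9% and 50.0% (30.0% and 29.3% rescaled). Adamts9, which like Adamts1 cuts versican, was at 14.6, 14.97 and 13.4 FPKM in the hyphae libraries, 6.85, 5.65 and 4.84 FPKM in the conidia libraries and 3.93, 4.80 and 4.62 FPKM in the control libraries. It was higher after hyphae than in control (1.49, SE 0.13, adjusted p = 4.37e-05) and than after conidia (1.18, SE 0.13, adjusted p = 0.000148). Adamts15 (1.38) and Adamts14 (0.99) were also higher after hyphae than in control, and Adamts10 was lower (−1.15, adjusted p = 0.000795). Between hyphae and conidia 3 were higher, Adamts9, Adamts8 (1.12) and Adamts14 (0.53), and 1 was lower, Adamts10 (−0.54), which lost its call when rescaled. Of all genes 12.7% were called as higher and 42.5% as lower in this comparison. None of the 11 was called between conidia and control in limma, in either scaling. At an unadjusted p under 0.05, 3 were higher and 2 lower, beside 8.78% and 12.4% of all genes. The median log2 difference for hyphae against control was −0.60 over the 8 MMP genes and 0.04 over the 11 ADAMTS genes, beside −0.37 over all tested genes.

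**Figure D5:**
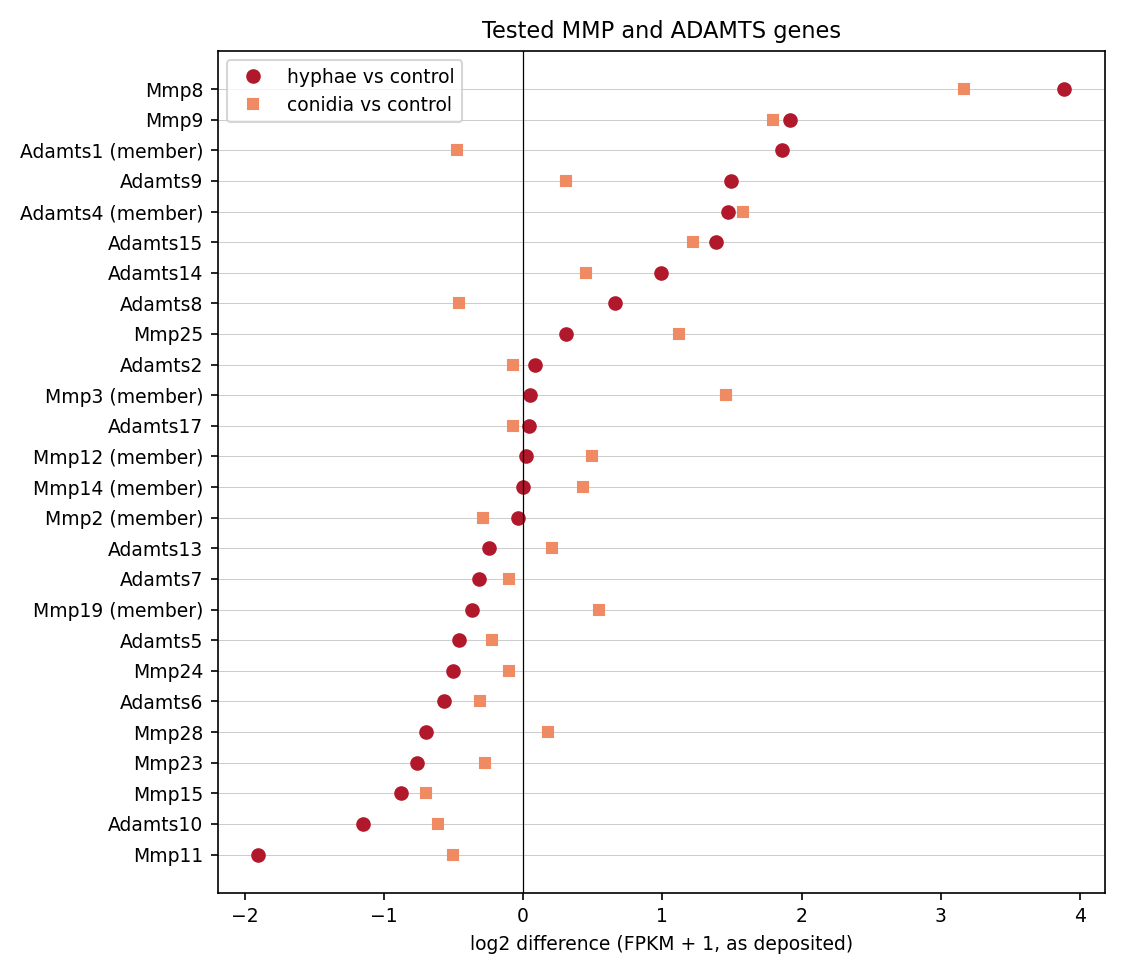
Log2 differences of FPKM + 1 (horizontal axis) of the 26 tested MMP and ADAMTS genes for hyphae against control (circles) and conidia against control (squares), ordered by the value for hyphae. Mmp8 stands highest for both fungal groups (3.89 and 3.17), Mmp11 lowest for hyphae (−1.90), and Mmp3 is at 0.05 for hyphae and 1.46 for conidia.

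Among the other metalloproteinase inhibitors 3 of 5 were tested. Timp4 stood at 1.28, 0.41 and 1.14 FPKM in the hyphae libraries, 3.57, 4.03 and 3.95 FPKM in the conidia libraries and 4.38, 1.83 and 1.34 FPKM in the control libraries. It was lower after hyphae than after conidia (−1.35, SE 0.30, adjusted p = 0.00502; −1.17 rescaled, adjusted p = 0.00962) and than in control (−0.79, adjusted p = 0.0432; adjusted p = 0.128 rescaled). After rescaling 2 of the 3 were called as higher than in control, and these were not Timp4. For hyphae against control 14.9% of all genes were called as higher and 50.0% as lower (30.0% and 29.3% rescaled). None of the 3 was called between conidia and control in limma (0 at an unadjusted p under 0.05).

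Genes for the substrates and for plasmin, an activator of pro-MMPs, were read beside the enzymes. Of 17 genes for collagens and elastic fibres 3 were higher after hyphae than in control, the basement membrane genes Col4a1 (1.36, adjusted p = 0.000403), Col4a2 (1.06) and Nid1 (0.42), and Col1a1 was lower (−0.71, adjusted p = 0.042; not called rescaled, where 6 were higher and none lower). Between hyphae and conidia the elastin gene Eln was lower (−0.67; not called rescaled, where 7 were higher and none lower). Of 11 tested proteoglycan and hyaluronan genes Has1, a hyaluronan synthase, was higher after hyphae than in control (1.53, adjusted p = 0.00393), and 5 were after rescaling. Between hyphae and conidia the perlecan gene Hspg2 was higher (0.57) and Has3 lower (−0.63), with 5 higher and 1 lower rescaled. Has3 was below 1 FPKM in every hyphae library and in control replicates 2 and 3, so it passed the filter mainly through the conidia libraries. Of 4 tested genes of plasminogen activation 2 were higher after hyphae than in control, the tissue activator Plat (2.51, SE 0.26, adjusted p = 0.000106) and the urokinase receptor Plaur (2.41, SE 0.44, adjusted p = 0.00138), and both were also higher after hyphae than after conidia (1.88 and 1.26). Plat was at 79.1, 95.8 and 57.0 FPKM in the hyphae libraries, 29.6, 13.9 and 18.6 FPKM in the conidia libraries and 11.6, 12.3 and 13.7 FPKM in the control libraries. No gene of these 3 lists was called between conidia and control in limma, in either scaling. At an unadjusted p under 0.05, 4 genes for collagens and elastic fibres were higher and 2 lower after conidia, 1 proteoglycan and hyaluronan gene was higher and 2 lower, and 3 genes of plasminogen activation were higher. Over all genes these shares were 8.78% higher and 12.4% lower. The called shares of all genes were 14.9% higher and 50.0% lower for hyphae against control (30.0% and 29.3% rescaled). For hyphae against conidia they were 12.7% and 42.5% (25.4% each rescaled).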

How the data were processed

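Poly(A) RNA of whole lung was sequenced on a BGISEQ instrument, per the labels' protocols. The authors deposited 1 file per library with FPKM values at 2 decimals, per the file headers. The submitters' processing notes list HISAT, Bowtie2 and the build mm9, with no version or order. Which tool computed FPKM is not stated there. No scaling beyond FPKM is recorded, so a few very abundant genes can shift all others. Depth was not computed.

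Values were transformed to log2(FPKM + 1), which understates the change of scarce genes. Genes that reached 1 FPKM in 3 or more libraries were fitted in R 4.3.3 with limma 3.58.1 (limma-trend, robust empirical Bayes, 1 term per group, all 9 libraries), with two-sided tests and Benjamini-Hochberg adjustment over 13761 genes. The call threshold was 0.05 and intervals are 95%. The procedure was tested on simulated data in which few genes changed and no library was shifted in scale. That simulation cannot show how the fits behave under the shift of all genes seen here between hyphae and control. Libraries were grouped by title. Alternatives were other pseudocounts, no filter, median-of-ratios rescaling, non-robust moderation, 2 groups per fit, a replicate block and leaving out each library. Same-numbered libraries showed no uniform correlation of their deviations from the group means (−0.312 to 0.425 over 9 pairs). With 3 libraries a group this cannot settle whether replicate numbers pair the libraries. The members and lists were chosen with earlier results of these data known. All 10 members were named; from other lists, at most 4 called genes per comparison with the largest difference were named (Timp4, Mmp8 and Mmp9 also by library). Mmp13, Mmp27 and the overlapping genes were named for their position. Of the listed genes Mmp1a and Siglec5 were not matched by symbol. Motifs were chosen after the results were known. One overlapping gene is not reported here.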

Additional observations from a re-analysis of the deposited data

Results flagged for a closer look

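As deposited, the fungal libraries of Adamts1 lay on opposite sides of control. Its 3 hyphae libraries (78.9 to 112 FPKM) lay above, and its 3 conidia libraries (13.5 to 22.7 FPKM) below, all 3 control libraries (24.3 to 27.7 FPKM). The log2 difference between hyphae and conidia was 2.33 (SE 0.19, adjusted p = 5.27e-05 in limma). Adamts1 was flagged because its fungal groups lay on opposite sides of control in these same libraries, so that test adds no separate support. The difference between conidia and control alone did not pass (−0.47, adjusted p = 0.205), and after rescaling the highest conidia library (22.9) lay within the control range (21.7 to 24.3). Over all tested genes 17.3% had all hyphae libraries above all controls and 17.8% had all conidia libraries below them. The share of genes that meet both conditions was not computed.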

How the results depend on the processing

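The calls of Timp3 and Adamts1 for hyphae against control, and of Timp1, Timp3, Mmp3 and Adamts1 for hyphae against conidia, held under every alternative run. Conidia against control depended on single choices. There 95 genes and 2 members (Timp1 and Mmp3) were called, against 43 genes and 1 member without the filter on low values, 47 and 1 rescaled, 57 and 1 with a replicate block (adjusted p of Mmp3 0.0718) and 13 and 1 rescaled with the replicate block; the member left was Timp1. Leaving out 1 library gave 0 to 1503 genes and 0 to 4 members. The count was 0 in limma when control replicate 1, control replicate 2, control replicate 3 or conidia replicate 3 was omitted; at an unadjusted p under 0.05 there were then 1982, 1971, 2601 and 1862 genes, with 4, 4, 5 and 5 members. The 1503 genes and 4 members (Timp1, Mmp3, Mmp19 and Adamts4) were called without conidia replicate 2. Where a group is left with 2 libraries the fit shares the spread of the others. With the fit of 2 groups at a time all member calls were as reported. For hyphae against conidia rescaling gave 4 members as higher, with or without the replicate block, where with the block the call of Mmp19 was lost (adjusted p = 0.0574). Signs turned only where neither value was called. Rescaled, with and without the block, the log2 difference for hyphae against control became 0.39 for Mmp2 and 0.41 for Mmp14, and that of Adamts4 for hyphae against conidia 0.12; with a pseudocount of 0.1 that of Mmp12 for hyphae against control was −0.0078. Leaving out 1 library, the difference for hyphae against control ranged from −0.030 to 0.058 for Timp2, −0.13 to 0.11 for Mmp2, −0.065 to 0.194 for Mmp3, −0.29 to 0.32 for Mmp12 and −0.11 to 0.13 for Mmp14, and for hyphae against conidia from −0.57 to 0.57 for Adamts4. For hyphae against conidia Mmp14 was called with the replicate block (adjusted p = 0.0448) and without control replicate 2 (0.0389), control replicate 3 (0.0496) or hyphae replicate 2 (0.0471), and Mmp12 without hyphae replicate 3 (−0.78, adjusted p = 0.0497). The replicate numbers are not stated to pair animals, and the block changed no other member call in the values as deposited. The cause of these changes was not tested. With 3 libraries a group and unknown depth, values near 0, such as Adamts4 in control, are the least precise.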

Other observations

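Of 10 tested ADAM genes 3 were called as higher and 7 as lower after hyphae than in control (3 and 4 rescaled), beside 14.9% and 50.0% of all genes (30.0% and 29.3% rescaled), so that the rescaled counts are close to those shares. None was called between conidia and control in limma. At an unadjusted p under 0.05, 1 was higher and 2 were lower, beside 8.78% and 12.4% of all genes. Adam19 was at 2.83, 3.58 and 4.25 FPKM in the hyphae libraries, 17.7, 17.4 and 15.8 FPKM in the conidia libraries and 15.4, 16.5 and 14.7 FPKM in the control libraries. Its hyphae libraries lay below all others (−1.87 against control, SE 0.12, adjusted p = 2.19e-05; −1.99 against conidia, SE 0.12, adjusted p = 2.56e-05). Adam33, an ADAM gene of mesenchymal cells, was lower after hyphae than in control (−1.88), as was Adam28 (−1.34), while the leukocyte gene Adam8 was higher (1.11, adjusted p = 0.0485). Of 5 tested ADAMTS-like genes, whose products bind matrix but lack the protease domain, 2 were higher after hyphae than in control, Adamtsl2 (1.20, SE 0.14, adjusted p = 0.000148) and Adamtsl4 (0.61), and 1 was lower, Adamtsl5 (−0.36; not called rescaled, where 4 were higher and none lower). After conidia Adamtsl2 differed from control by 0.69 (adjusted p = 0.0597; 0.78 rescaled, adjusted p = 0.0453).

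The genes most like Timp1 over the 9 libraries, by Pearson's r of log2(FPKM + 1), were Wfdc17 (0.984), Ly6i (0.984), Basp1 (0.979), Noxo1 (0.975) and Chil1 (0.973). The 9 libraries fall into the 3 groups, so these values rest on the step to the conidia group and carry no p. Wfdc17 was at 12.01, 22.7 and 27.3 FPKM in the hyphae libraries, 294, 81.9 and 128 FPKM in the conidia libraries and 20.7, 10.1 and 14.6 FPKM in the control libraries. Chil1, a chitinase-like protein, was at 591, 665 and 563 FPKM in the hyphae libraries, 2332, 1260 and 1576 FPKM in the conidia libraries and 567, 564 and 627 FPKM in the control libraries. In both, as in Timp1, conidia replicate 1 was the highest and conidia replicate 2 the lowest of the conidia libraries, and hyphae overlapped with control. Both were picked for a high r with Timp1 over these libraries, so the shared order is not independent of that choice.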
